A study of Mus musculus with 7 samples.

Results

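The liver transcriptome of wild-type C57BL/6 mice was described from 2 of the 7 RNA-seq libraries of a study of mice that carry a dCas9 SunTag system, in which a catalytically inactive Cas9 is tethered to repeated peptide tags. The 2 libraries are titled WT replicate 1 and WT replicate 2, and each holds total RNA from whole liver of the wild-type genotype, with no transgene and no treatment named in the labels. The other 5 libraries were not used and no groups were compared. The labels give no sex or age, and do not say whether the replicates came from separate animals, so the spread between them may be technical in part or in whole. Each library was deposited as 1 table of 37468 gene rows with a level in FPKM (fragments per kilobase of transcript, scaled to the library's mapped fragments). A row was kept where its status was OK in both tables and its locus spanned at least 300 bp, which left 31127 rows. Rows under that span took 51.8% of the FPKM sum in replicate 1 and 49.7% in replicate 2, and 1 mitochondrial tRNA, mt-Ts1, took 30.9% and 27.97%. FPKM divides by length, so these are not shares of reads or of RNA. The value of a short row can lie far above its own deposited bounds. The tRNA mt-Te (69 bp) was at 89040 FPKM in replicate 1 with an upper bound of 1143, though mt-Ts1 lay within its bounds. All shares below are of the sum over the 31127 rows, which was 785947 FPKM in replicate 1 and 797565 in replicate 2. Read counts are not in the tables, so the depth of the libraries is unknown. With 1 group of 2 libraries there is no test, and each value is given in both libraries.

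Most cells of the liver by mass are hepatocytes, which make most proteins of the blood plasma, turn ammonia into urea, store and release glucose, oxidise fatty acids, and convert drugs and steroids with cytochrome P450 enzymes before these are conjugated and excreted. They line sinusoids walled by fenestrated endothelial cells, with Kupffer cells (resident macrophages) in the lumen and vitamin A-storing stellate cells outside the endothelium. Along each sinusoid hepatocytes near the portal vein favour urea and glucose synthesis, and those near the central vein favour glutamine synthesis and P450 reactions.

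Transcripts of plasma proteins and of the mitochondrial genome filled the top of the ranking. Alb, which encodes albumin, the most abundant plasma protein, ranked first in both libraries, with 48893 FPKM in replicate 1 and 54093 in replicate 2 (mean 51493 ± 3676, SD, n = 2). That is 6.22% and 6.78% of the FPKM sum from a single gene (ENSMUSG00000029368, mm9 chr5:90889915-90905629). Next came 2 apolipoproteins, the protein shells of lipoprotein particles. Apoe, a ligand of the receptors that clear lipoprotein remnants, was at 29087 FPKM in replicate 1 and 36912 in replicate 2. Apoa2, a protein of high-density lipoprotein, was at 23469 and 28007. Both were higher in replicate 2, as was albumin. Trf, the iron carrier transferrin, followed with 13208 and 14957 FPKM. Then came Apoc1 with 9972 and 10105 FPKM, Apoa1, the main protein of high-density lipoprotein, with 8248 and 10495, and Apoc3, an inhibitor of lipoprotein lipase, with 7919 and 9288. The 10 highest rows also held mt-Co2 (8213 and 8567 FPKM) and mt-Co1 (7341 and 7283), both subunits of cytochrome c oxidase, and Ahsg, the calcium-binding plasma protein fetuin-A (6898 and 7861).

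The abundance ranking was steep. The 3 highest rows took 12.9% of the FPKM sum in replicate 1 and 14.9% in replicate 2. The 10 highest rows of each library took 20.8% and 23.5%, and 9 of them were shared between the libraries. With no span minimum the mean of 22.1% became 49.4%. The 100 highest took 47.9% and 48.9%, with 92 shared, and the 1000 highest took 78.4% and 79.3%, with 941 shared. It took 118 rows in replicate 1 and 109 in replicate 2 to reach 50% of the sum, 2838 and 2670 to reach 90%, and 9882 and 9626 to reach 99%. At the other end 9824 rows (31.6%) were listed at 0 in replicate 1 and 10103 (32.5%) in replicate 2, with 8914 at 0 in both. A level of at least 1 FPKM was reached by 12935 and 12750 rows, at least 10 FPKM by 5600 and 5426, at least 100 by 983 and 966, and at least 1000 by 105 and 108. The plot of level by rank shows these counts for both libraries.

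**Figure D1:**
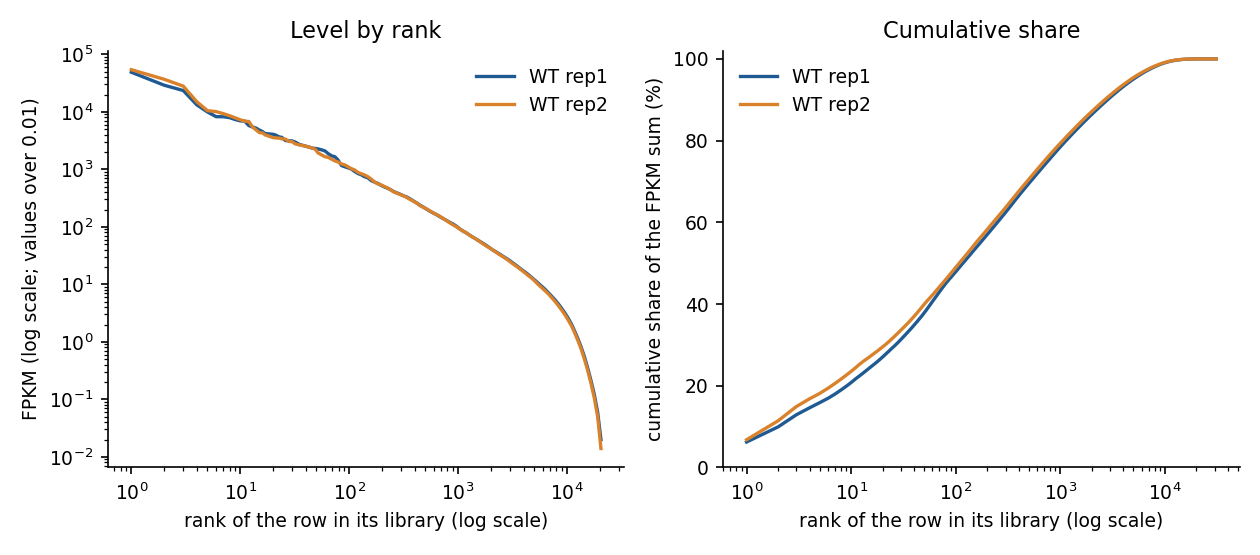
Left, FPKM of each row against its rank within its own library, both on log scales and for values over 0.01 FPKM; right, the cumulative share of the FPKM sum in percent against rank on a log scale. Blue is WT replicate 1 and orange WT replicate 2; the curves run close together, with replicate 2 above over the first ranks (20.8% and 23.5% at rank 10) and both at nearly the full sum by rank 9882.

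Among the 100 rows with the highest mean, 51 belonged to the plasma protein classes, 20 to metabolic enzymes, 12 to mitochondrial respiration, 3 to antigen presentation, 2 to iron and metal binding, 2 to translation and 1 to RNA genes. A further 4 were genes without a proper name and 5 fell in no class. Those 5 were Rdh7, Stard10, Dbi, Ptms and Cisd3. Rdh7, a retinol dehydrogenase, was the highest of them, with 1864 FPKM in replicate 1 and 1712 in replicate 2. The plasma protein classes held carrier, coagulation, complement and acute phase proteins, apolipoproteins, serpins and the major urinary proteins (Mup). Of the 25 highest named rows, 17 belonged to these classes, Mup3 and Mup9 among them, and 7 were protein genes of the mitochondrial genome. The one left over was Hpd (2983 and 3562 FPKM), an enzyme of tyrosine breakdown and the highest-ranked metabolic enzyme. Replicate 2 was the higher library for 17 of the 25, and for 40.3% of all rows with a mean of at least 1 FPKM.

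Many of these rows lie side by side. Chained at gaps of up to 100 kb, 37 of the 100 highest rows fell into 7 clusters of at least 3 rows, with 19.2% of the FPKM sum in replicate 1 and 18.0% in replicate 2. One held Apoc4, Apoc1 and Apoe, on mm9 chr7:20263443-20284515, with 5.24% and 6.17% of the sum. The mitochondrial chromosome held 11 of the 37. The 5 Serpina1 genes (alpha-1 antitrypsins, inhibitors of neutrophil elastase) and Gm8893, annotated as a pseudogene, formed a cluster on chr12:104966366-105197185 with 2.28% and 2.13%. The fibrinogen chains Fgg, Fga and Fgb lay on chr3:82811781-82853725 with 0.969% and 0.977%. The last 3 clusters held 3, 5 and 6 Mup genes, between positions 60079341 and 61335170 of chromosome 4.

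The most abundant transcripts were also short. The longest GENCODE transcript had a median of 1484 nucleotides over the 81 protein-coding genes of the 100 highest rows that were matched, 1958 over 835 genes of the next ranks up to 1000, and 3391.5 over 9670 lower-ranked genes at a mean of at least 1 FPKM. The 9485 genes under 1 FPKM had a median of 2711. FPKM divides by transcript length, so this ranking is per length of transcript and not by reads. For rows with a mean of at least 10 FPKM and a transcript over 300 and up to 500 nucleotides, the deposited value was a median 1.69 times the midpoint of its own deposited bounds in replicate 1 and 1.70 times in replicate 2 (286 rows). For transcripts of over 1000 and up to 2000 nucleotides it was 1.0 times in both (1288 rows). All 25 highest named rows lay outside their own bounds in both libraries. The bounds were therefore not used as errors.

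The letters just before the transcription start differ between the most abundant classes. The windows below are the 250 bases before the RefSeq start (build GRCm38.p6, a different build from that of the expression tables, matched by gene symbol), printed 5′ to 3′ on the strand of the gene. The 4 plasma protein promoters shown first were picked because they hold GTTAATNNT, a pattern known from liver promoters, so they show where it lies and not how common it is. Capitals mark the pattern, which was searched on both strands.
Alb, chr5:90460620-90460869, plus strand: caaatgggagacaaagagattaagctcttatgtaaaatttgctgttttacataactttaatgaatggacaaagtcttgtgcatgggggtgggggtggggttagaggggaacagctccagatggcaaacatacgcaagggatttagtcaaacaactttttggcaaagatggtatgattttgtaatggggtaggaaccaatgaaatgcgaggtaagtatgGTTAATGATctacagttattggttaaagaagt
Serpina1b, chr12:103738190-103738439, minus strand: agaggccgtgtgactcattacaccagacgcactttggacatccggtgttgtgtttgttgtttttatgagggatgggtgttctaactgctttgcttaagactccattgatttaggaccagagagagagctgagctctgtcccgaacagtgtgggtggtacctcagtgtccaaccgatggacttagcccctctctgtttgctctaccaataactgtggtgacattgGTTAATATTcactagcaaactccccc
Serpina1a, chr12:103863620-103863869, minus strand: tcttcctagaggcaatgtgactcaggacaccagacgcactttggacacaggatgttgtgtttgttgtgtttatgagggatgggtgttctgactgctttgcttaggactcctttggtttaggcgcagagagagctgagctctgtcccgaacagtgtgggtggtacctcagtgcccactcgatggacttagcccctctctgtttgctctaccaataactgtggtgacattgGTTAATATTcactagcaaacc
Gc, chr5:89457899-89458148, minus strand: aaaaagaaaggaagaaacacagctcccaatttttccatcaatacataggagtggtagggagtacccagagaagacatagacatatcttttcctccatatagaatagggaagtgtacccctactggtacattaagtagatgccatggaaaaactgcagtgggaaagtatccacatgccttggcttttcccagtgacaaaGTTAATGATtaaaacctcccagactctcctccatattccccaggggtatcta
The 2 ribosomal protein promoters below were likewise picked because they hold CCGGAAG, a pattern of ETS-family factors, shown in capitals.
Rpl41, chr10:128549169-128549418, minus strand: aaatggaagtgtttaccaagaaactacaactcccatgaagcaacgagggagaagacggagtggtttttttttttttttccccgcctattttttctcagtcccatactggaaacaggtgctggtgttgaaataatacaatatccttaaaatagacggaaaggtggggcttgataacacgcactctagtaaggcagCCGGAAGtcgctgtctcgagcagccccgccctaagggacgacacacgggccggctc
Rps21, chr2:180257129-180257378, plus strand: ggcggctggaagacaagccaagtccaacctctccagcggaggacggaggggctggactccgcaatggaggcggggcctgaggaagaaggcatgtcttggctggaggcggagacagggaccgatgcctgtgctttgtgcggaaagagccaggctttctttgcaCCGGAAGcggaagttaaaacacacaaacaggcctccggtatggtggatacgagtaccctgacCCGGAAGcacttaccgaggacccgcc
The GTTAATNNT letters ran from 32 to 24 bases before the start in Alb, from 26 to 18 in Serpina1b, from 21 to 13 in Serpina1a and from 52 to 44 in Gc, the vitamin D-binding protein. The single CCGGAAG of Rpl41 ran from 56 to 50 bases before the start, and Rps21 held 2, from 88 to 82 and from 26 to 20.

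Of the 100 highest rows 65 had a promoter in the RefSeq table, with 75 windows, and 10 of those windows (13.3%) held GTTAATNNT. Plasma protein genes held it in 21 of 151 windows (13.9%), metabolic enzymes in 24 of 391 (6.14%), mitochondrial respiration genes in 0 of 73 and translation genes in 1 of 110 (0.909%), against 747 of all 32851 windows of the table (2.27%). In the 100 highest rows the 10 genes with it were Alb, the 5 Serpina1 genes, Gc, Fabp1, Fgb and Fga. The Serpina1 genes are known as recent duplicates of each other, so their windows are not independent. CCGGAAG went the other way, with 27 of 110 translation windows (24.5%), 12 of 73 windows of mitochondrial respiration (16.4%) and 2 of 151 plasma protein windows (1.32%), against 2269 of all windows (6.91%). Among windows of all rows at a mean of at least 1 FPKM, 13.4% held it, so the share of mitochondrial respiration lay near that of expressed genes at large. For GTTAATNNT that share was 1.65%. TTNCNNAA, a C/EBP core, stood in 58.3% of plasma protein windows, 36.8% of all and 29.5% of those of rows at 1 FPKM or more. The forkhead letters TGTTTGC stood in 13.2%, 4.30% and 3.38% of the same sets, and TATAAA, read on the gene's strand, in 14.6%, 7.59% and 4.09%. The Sp1-type letters GGGCGG were rare in plasma protein windows, 8.61% against 32.7% of all and 55.7% of those of rows at 1 FPKM or more. CpG dinucleotides had a median of 2 per window for plasma proteins, 6 for metabolic enzymes, 14 for mitochondrial respiration and 18 for translation. The median was 6 over all windows and 15 over those of rows at 1 FPKM or more. These matches are a description of letters and no binding was measured here. Patterns overlap, since GTTAATNNT contains GTTAAT, and 13 were searched in all. CAAAGTCCA, a pattern of HNF4, stood in 13 of 391 metabolic enzyme windows (3.32%), against 0.384% of all, and in 0 of 151 plasma protein windows, too few to read at that rate. The looser CAAAGTNCA, which contains it, stood in 5.12% of metabolic enzyme windows and 2.65% of plasma protein windows, against 1.19% of all.

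By function, the plasma protein classes together took 37.1% of the FPKM sum in replicate 1 and 37.7% in replicate 2, from 179 rows. These rows include the 40 of the major urinary proteins. Metabolic enzymes took 12.3% and 12.5% from 424 rows, mitochondrial respiration 9.07% and 9.05% from 99 rows, and translation 4.33% and 4.098%. Genes without a proper name took 7.41% and 7.21% from 11281 rows, and 25.9% and 25.5% lay in 18630 named rows outside every class. With no span minimum the mean shares became 18.8% for plasma proteins, 6.22% for metabolic enzymes, 5.32% for mitochondrial respiration and 2.12% for translation. FPKM times transcript length gave mitochondrial respiration 5.24% and unnamed genes 3.79%. Rows of at least 1000 bp alone gave these 2 groups 5.97% and 4.04%. Rows with no GENCODE length, the unnamed Gm10925 among them, were not in the product with length. Protein-coding genes by the GENCODE biotype took 91.8% and 92.6%. The shares of these large groups differed by less than 1 percentage point between replicates, while single classes moved by more, as the plot of class shares shows. Within the plasma protein group classes moved in opposite directions. Major urinary proteins went from 5.92% to 3.47%, with serpins and complement also lower in replicate 2. Carrier proteins went from 12.7% to 14.1% and apolipoproteins from 10.98% to 12.9%, with coagulation and acute phase proteins also higher.

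**Figure D2:**
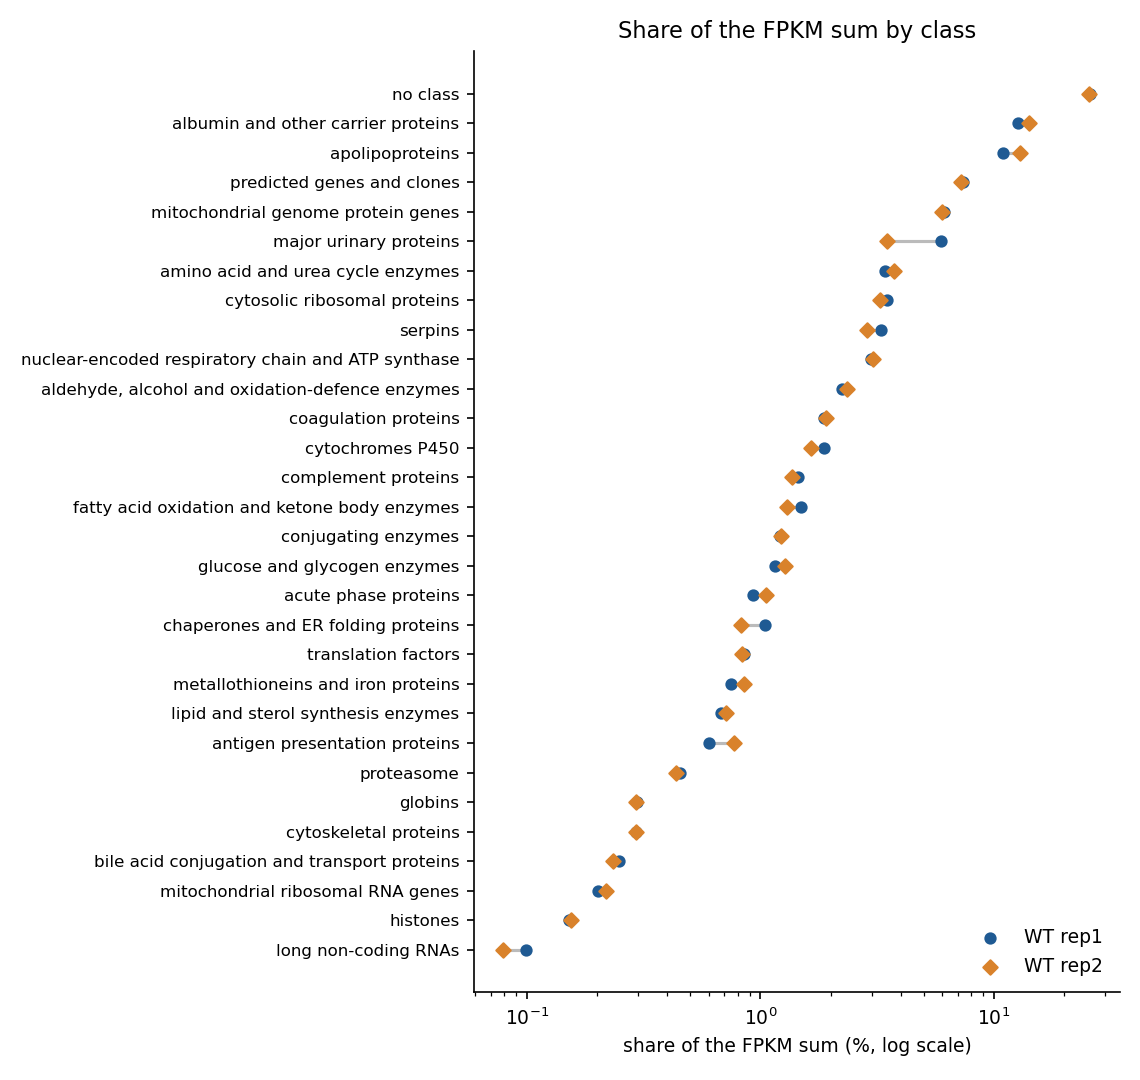
Share of the FPKM sum in percent (log axis) for each class, ordered by the mean of both libraries. Blue circles are WT replicate 1, orange diamonds WT replicate 2, and a grey line joins them; the symbols lie close together for most classes, and farthest apart for the major urinary proteins, 5.92% and 3.47%.

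Albumin and the other carrier proteins formed the largest class with 12.7% of the sum in replicate 1 and 14.1% in replicate 2, and Alb alone made 48.5% of it by the mean share. Ttr, which carries thyroid hormone and the retinol-binding protein, was at 4818 and 6796 FPKM, and its partner Rbp4 at 3120 and 3955. Hp and Hpx, which capture haemoglobin and haem, were at 1848 and 2608 FPKM and at 2376 and 2646. Each of these carriers was higher in replicate 2. Apolipoproteins took 10.98% and 12.9%, with 14 of 15 rows at a mean of at least 1 FPKM. From FPKM times transcript length their mean share of 11.9% became 6.71%. Apob, the structural protein of very-low-density lipoprotein, was far below the small apolipoproteins, at 814 and 779 FPKM. Apod was the only row of the class under 1 FPKM (0.118 and 0.0426).

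Serpins took 3.27% and 2.86%. The highest was Serpina3k, 5764 FPKM in replicate 1 and 3482 in replicate 2, ahead of Serpina1b (4146 and 4307) and Serpina1a (3711 and 3729). Serpina1e stood at 2264 and 1241, lower in replicate 2, while the other Serpina1 genes lay close together in both libraries. Serpina1 genes are near-identical, and no source used here says how reads were shared between them, so the level of each copy is uncertain. Coagulation proteins took 1.87% and 1.92%. The fibrinogen chains Fgb, Fgg and Fga were at 2880, 2466 and 2272 FPKM in replicate 1 and at 2695, 2590 and 2507 in replicate 2. Prothrombin, F2, was at 1114 and 1279, and plasminogen, Plg, at 1009 and 1003. The complement class (1.44% and 1.36%) was led by C3, the central protein of the cascade, with 5453 and 4846 FPKM. Acute phase proteins took 0.925% and 1.06%. Among them Hamp, the iron hormone hepcidin, was at 1633 and 1597 FPKM, while its paralogue Hamp2 was at 1466 and 2770. Saa1 (65.8 and 115) and Saa3 (11.3 and 23.96), serum amyloid A proteins, were higher in replicate 2, and Apcs (143 and 82.1), serum amyloid P, was lower.

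The 40 rows of the major urinary proteins (Mup), lipocalins that carry pheromones into the urine, differed most between the replicates in share. They took 5.92% of the FPKM sum in replicate 1 and 3.47% in replicate 2. The mean of 4.70% became 1.86% from FPKM times transcript length. Rows with no GENCODE length, Mup12, Mup15 and Mup17 among them, were not in that product. All 38 rows at a mean of at least 1 FPKM were lower in replicate 2, where 59.7% of all 12861 such rows were lower. The median log2 ratio of replicate 2 over replicate 1, on the log2(FPKM + 1) scale, was -0.79, with a range from -1.06 to -0.20. Mup3, the highest, was at 4167 and 3399 FPKM, Mup9 at 4102 and 2655, Mup10 at 4073 and 2347, and Mup20 at 135 and 65.7. Mup genes are near-identical copies, so reads may be shared between rows and the 38 rows are not independent measurements.

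The mitochondrial genome's protein genes took 6.09% and 6.02% from 11 rows that spanned at least 300 bp. The mean of 6.05% became 2.68% over rows of at least 1000 bp and 2.98% from FPKM times transcript length. In complex IV, mt-Co3 stood beside mt-Co2 and mt-Co1 with 6968 and 6882 FPKM. The cytochrome b gene mt-Cytb was at 5208 and 5428, and mt-Atp6 of the ATP synthase at 4537 and 4343. Complex I genes were lower, from mt-Nd3 at 3965 and 3821 down to mt-Nd5 at 839 and 748. The value of mt-Nd3 (348 bp) was 2.34 times the midpoint of its own deposited bounds in both libraries, so its place among them is uncertain. The 11 rows stayed within log2 ratios of -0.16 and 0.11 of each other in the replicates. The rows mt-Atp8 (204 bp, 10993 and 10360 FPKM) and mt-Nd4l (297 bp, 1585 and 1394) fell under the span minimum and are not in the shares. The deposited upper bounds of mt-Atp8 were 1839 and 1734 FPKM, under its own values. Nuclear genes of the respiratory chain and ATP synthase took 2.98% and 3.03% from 88 rows, led by Uqcrq of complex III (1503 and 1780 FPKM) and Atp5b of the ATP synthase (1214 and 1268). In the deposited values the mitochondrial ribosomal RNAs mt-Rnr1 (993 and 1174) and mt-Rnr2 (592 and 566) stood under most of the mitochondrial protein genes. How library preparation affected ribosomal RNA was not tested, so their order in the liver itself is not known from these values.

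Among metabolic enzymes, those of amino acids and the urea cycle took the largest share, 3.42% and 3.72%. After Hpd came Ass1, argininosuccinate synthase of the urea cycle (2371 and 3259 FPKM), and Gnmt, which uses up excess S-adenosylmethionine (2181 and 2662). Arg1 (1024 and 1022), Asl (799 and 916), Cps1 (716 and 633) and Otc (149 and 138) complete the urea cycle and spanned a wide range of levels. Enzymes of aldehydes, alcohols and oxidation defence took 2.23% and 2.36%, led by Gpx1, a glutathione peroxidase (2257 and 2423), and Adh1, alcohol dehydrogenase (1872 and 2409). Fatty acid oxidation and ketone body genes took 1.49% and 1.31%. The largest of them was Fabp1, the liver fatty acid-binding protein, at 3636 FPKM in replicate 1 and 2208 in replicate 2. Glucose and glycogen enzymes took 1.15% and 1.28%, with Pck1 of glucose synthesis at 977 and 1143. G6pc, which releases free glucose, was at 134 and 284, the largest difference in that class. Lipid and sterol synthesis enzymes took 0.676% and 0.710%, led by Scd1, a fatty acid desaturase (806 and 1099).

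Cytochromes P450 took 1.87% and 1.64%, and 73 of 104 rows had a mean of at least 1 FPKM. Cyp2e1, which oxidises ethanol and paracetamol, was the highest with 2692 and 2444 FPKM. Cyb5, the electron donor cytochrome b5 counted in this class, followed at 1484 and 1394. Cyp3a11 (584 and 729) and Cyp2d26 (536 and 685) were higher in replicate 2, while Cyp2c69 (740 and 240), Cyp2c40 (522 and 238) and Cyp3a41a (438 and 227) were lower. The log2 ratios of the class ran from -1.62 to 1.07. Conjugating enzymes took 1.21% and 1.23%, led by Mgst1 (2288 and 1683) and Gsta3 (1348 and 1623), both glutathione transferases. Bile acid conjugation and transport genes took 0.248% and 0.233%. Among them were Abcb11, the bile salt export pump (341 and 317), and Slc10a1, the bile salt uptake carrier (316 and 303).

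Cytosolic ribosomal proteins took 3.49% and 3.27%, and all 82 rows had a mean of at least 1 FPKM. The mean of 3.38% became 2.24% from FPKM times transcript length. Rpl13a led with 1792 and 1788 FPKM, followed by Rpl41 (1010 and 850). Eef1a1, which brings aminoacyl-tRNA to the ribosome, was the highest translation factor (2246 and 2317). Of the ferritins, which store iron, the light chain Ftl1 was at 2306 and 3361 FPKM and the heavy chain Fth1 at 1693 and 1863. Chaperones and proteins of folding in the endoplasmic reticulum took 1.04% and 0.826%. In that class 43 of 48 rows were lower in replicate 2, where 59.7% of all rows were lower, and the median log2 ratio was -0.33. Hspa8 (652.5 and 412), Hsp90ab1 (570 and 428) and the endoplasmic reticulum chaperone Hspa5 (330 and 216) were among them. Antigen presentation genes took 0.601% and 0.773%. Of the 22 rows, 20 were higher in replicate 2, where 40.3% of all rows were higher, and the median log2 ratio was 0.38. B2m, the light chain of class I molecules, was at 1345 and 1651 FPKM, and the class I heavy chain H2-K1 at 1087 and 1590. The class II chain H2-Ab1, a gene of antigen-presenting cells, was at 25.7 and 44.1.

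Genes without a proper name ranked high in places. Among rows with a mean of at least 10 FPKM they numbered 850 and took 6.42% and 6.30% of the sum. For 92 of them no transcript was in GENCODE M21, so no sequence was compared, and the highest unnamed row, Gm10925 (3619 and 3482 FPKM, rank 21), is one of these. A transcript of 298 of the other 758 matched a named gene at 95% identity or more over at least 80% of its length, and these near copies took 2.62% in both libraries. Only named genes with a mean of at least 1 FPKM were searched. Near copies of ribosomal protein genes numbered 88 with 0.616% and 0.583%. Another 3 were near copies of mitochondrial genes on nuclear chromosome 2 with 0.409% and 0.376%. Gm13341 (1712 and 1652 FPKM) was 95.9% identical to mt-Co2, Gm13340 (1111 and 997) was 97.6% identical to mt-Co1 and Gm13339 (389 and 351) was 96.7% identical to mt-Nd2. Gm8893 (1699 and 1655) was 98.8% identical to Serpina1a, Gm10116 (813 and 1112) 99.6% to Ftl1 and Gm5424 (537 and 698) 99.5% to Ass1. Reads of such rows cannot be told apart from those of the named gene with certainty, so their levels are uncertain. Of the rows not found to be near copies, the 92 without a sequence included, 155 overlapped the span of a named gene, with 0.983% and 1.01%, and 397 did not (2.82% and 2.68%). Overlap with named genes under a mean of 1 FPKM was not checked.

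The replicates agreed closely over most genes. Over the 12861 rows with a mean of at least 1 FPKM, values on the log2(FPKM + 1) scale had a Pearson r of 0.989 and a Spearman rho of 0.982, as a description across genes that share both libraries. The SD of the log2 ratio of replicate 2 over replicate 1 was 0.30, its median was -0.06 and its middle 50% ran from -0.20 to 0.10. The ratio lay within 0.5 for 93.3% of rows. With no span minimum the SD was 0.75 and r 0.932. Within single ranges of level r was lower than over all these rows, from 0.578 at means of 1 to 3 FPKM to 0.931 over 1000 FPKM. On this scale the spread was no smaller for the most abundant rows. The SD was 0.30 at means from 1 to 3 FPKM (3202 rows), 0.29 from 10 to 30 (2877 rows), 0.27 from 300 to 1000 (260 rows) and 0.41 over 1000 FPKM (107 rows), where 77.6% of rows lay within 0.5. Adding 1 shrinks the ratios of low rows most, so these levels cannot be compared directly. With 0.1 added in its place the SD over all rows at a mean of at least 1 FPKM was 0.39. The rows over 1000 FPKM include many near-identical Mup rows, all lower in replicate 2.

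**Figure D3:**
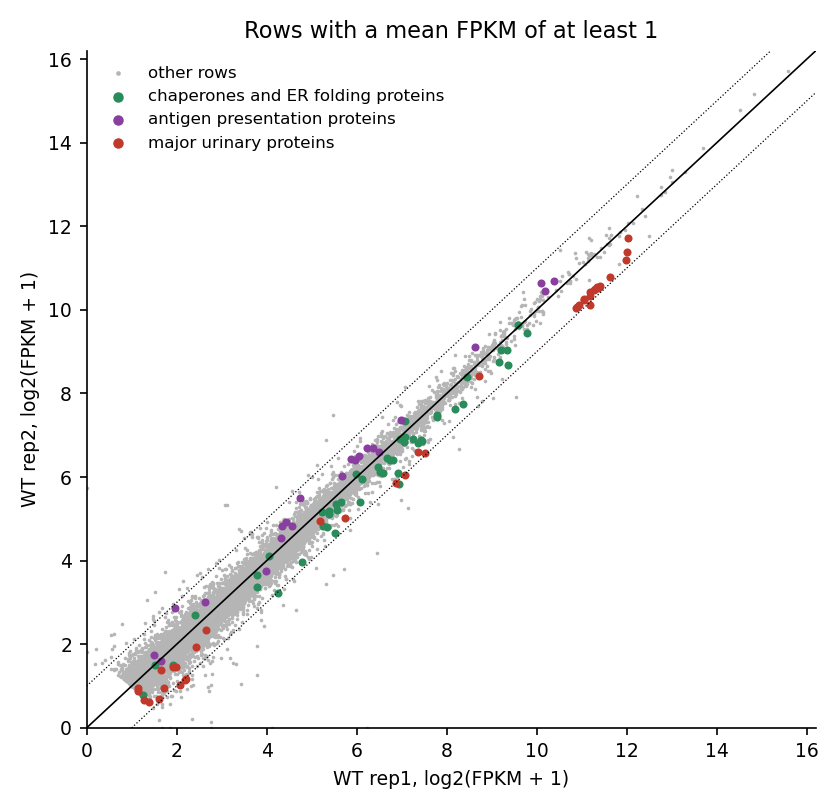
Level of each of the 12861 rows with a mean of at least 1 FPKM in WT replicate 1 (x) and WT replicate 2 (y), both as log2(FPKM + 1). The solid line marks equal values and the dotted lines a 2-fold difference on this scale; major urinary proteins (red) and chaperones (green) lie mostly below the line of equal values and antigen presentation genes (purple) mostly above it.

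On this scale 20 of 5517 rows with a mean of at least 10 FPKM were at least 2-fold higher in replicate 2 (0.363%) and 24 at least 2-fold lower (0.435%). Of these 44 rows 35 were named. The largest difference upward among named rows was that of Gadd45g, a stress-inducible gene, 7.45 FPKM in replicate 1 and 39.4 in replicate 2. Igfbp1, an insulin-repressed binding protein of insulin-like growth factors, was next with 43.7 and 177. Slc25a25, a mitochondrial ATP-Mg carrier, was at 38.7 and 118, Hyal1, a hyaluronidase, at 17.5 and 53.6, and the kinase Sgk1 at 9.39 and 26.0. The list was closed by 3 sulfotransferases, Sult2a5 (9.70 and 25.1), Sult2a2 (33.95 and 76.7) and Sult2a1 (29.1 and 65.7). In the other direction the largest was Sult3a1, another sulfotransferase, at 86.2 and 17.1 FPKM. E2f6 was at 51.3 and 12.8, A1bg at 140 and 37.3, and the organic anion carrier Slco1a1 at 43.3 and 11.7. Below them came Cyp2c69, the metal-binding metallothionein Mt2 (308 and 101.5), the translation repressor Eif4ebp3 (33.2 and 13.1) and Cyp2c67 (282 and 123.5). Mt1 was lower in the same library, 600 and 323 FPKM. Both libraries carry the same label, and what moved with these differences was not tested.

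By class, the plot of ratios shows where the libraries parted. Median log2 ratios of classes lay between -0.79 for the major urinary proteins and 0.38 for antigen presentation, with chaperones at -0.33 and apolipoproteins at 0.16. Ribosomal proteins were lower in replicate 2 in 60 of 82 rows, where 59.7% of all rows were lower. Their median was -0.09, and -0.02 after scaling by the median ratio. Dividing replicate 2 by the median ratio of the libraries, a factor of 0.951 (-0.07 on the log2 scale), left 38 of 38 Mup rows lower, 39 of 48 chaperones lower and 20 of 22 antigen presentation genes higher. After that scaling 6330 of all 12861 rows were lower.

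**Figure D4:**
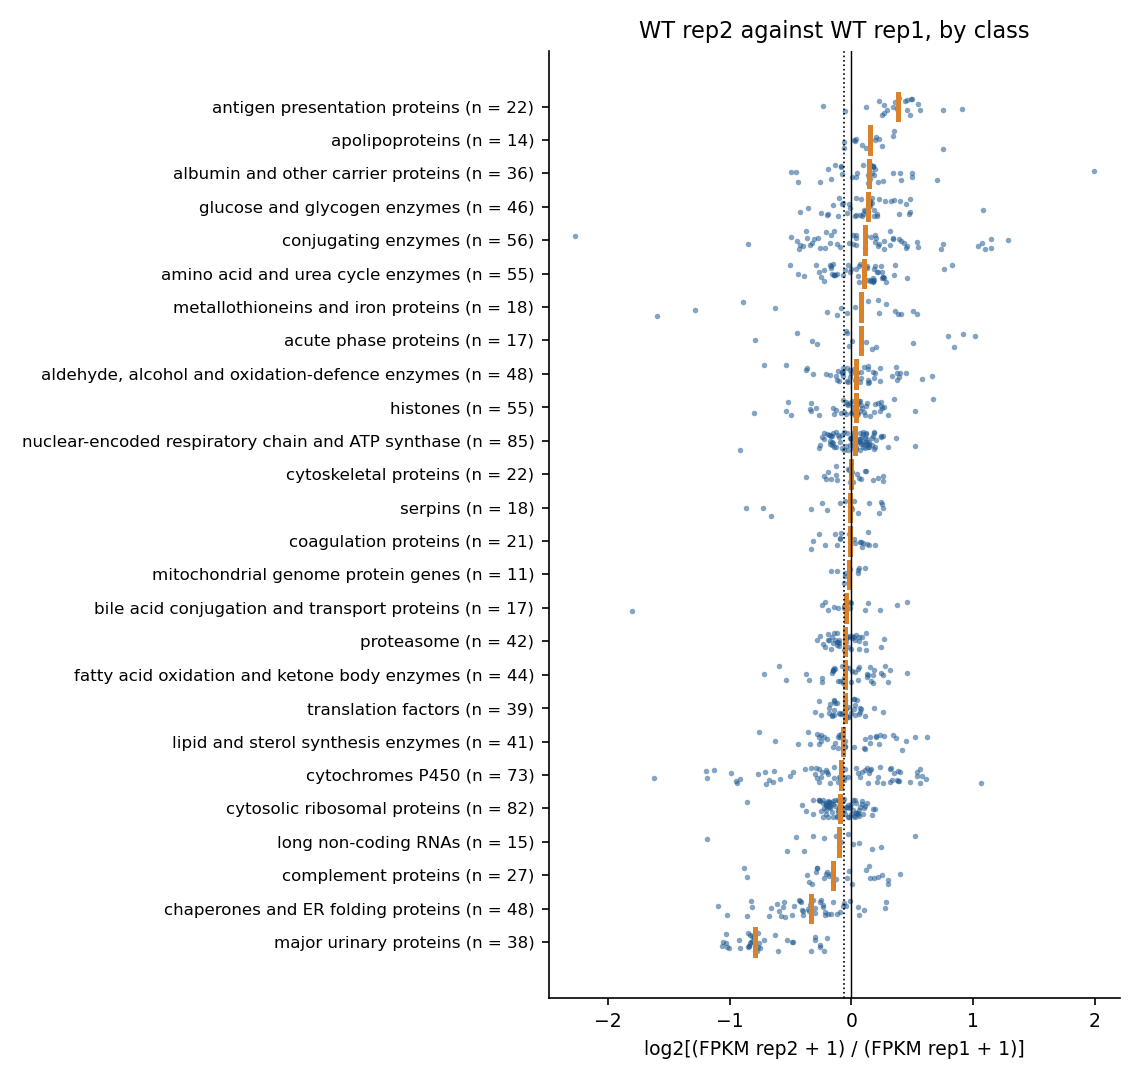
Log2 ratio of WT replicate 2 over WT replicate 1, with 1 added to each FPKM, for every row with a mean of at least 1 FPKM, in classes of at least 10 such rows. Each point is a row, the orange bar is the class median, the solid line is 0 and the dotted line is the median of all rows, -0.06; the major urinary proteins and chaperones lie lowest and antigen presentation genes highest.

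The label of liver was checked against marker lists. All 10 hepatocyte markers were above 10 FPKM, with 8.70% of the sum in replicate 1 and 9.76% in replicate 2. Asgr1, the asialoglycoprotein receptor of hepatocytes, was at 386 and 377. All 11 Kupffer cell and macrophage markers were at a mean of at least 1 FPKM, and they summed to 354 and 451 FPKM. Clec4f, the Kupffer cell lectin, was at 92.4 and 126. The complement subunits C1qa (70.4 and 91.3), C1qb (53.0 and 67.3) and C1qc (46.9 and 61.4), made by macrophages, were each higher in replicate 2. Across the list 10 of the 11 markers were higher in that library, against 40.3% of all rows with a mean of at least 1 FPKM. All 11 sinusoidal endothelial markers were at a mean of at least 1 FPKM, with a sum of 243 and 227. The scavenger receptor Stab1 was at 49.3 and 39.9 and the lectin Clec4g at 59.7 and 54.7. The 11 stellate cell markers summed to 283 and 335, mostly through Ecm1 (178 and 223). Lrat, which makes the stored retinyl esters, was at 2.54 and 2.18 and the collagen gene Col1a1 at 1.81 and 2.06. In bulk tissue fewer cells of a type and less RNA per cell cannot be told apart, so a sum here is not a cell share.

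Of the other cell types listed, red cells had the largest marker sum. Cholangiocyte markers summed to 36.3 and 44.7 FPKM, of which Spp1 made 24.5 and 29.8, while Krt19 of bile ducts was at 2.08 and 3.10. Lymphocyte and NK cell markers summed to 12.5 and 8.81 and neutrophil markers to 16.3 and 9.56, with Ly6g at 0 in both. Red cell transcripts summed to 2337 and 2358 FPKM, nearly all from the globins, with Hba-a1 at 746 and 771. Their membrane gene Slc4a1 was at 2.2 and 0.473. Pancreas markers were low except for Cela1 (27.1 and 18.1), with Cpa1, Ins1, Ins2 and Gcg at 0. Of adipose markers only Fabp4 (22.4 and 17.2) passed 1 FPKM and Plin1 was at 0. Kidney markers summed to 0.140 and 0.00923. Muscle markers summed to 24.01 and 27.6, through Mb (7.85 and 8.72), Tnnt2 (7.604 and 8.79) and Myh6 (3.81 and 4.31), the last 2 known from heart muscle. Myod1, the skeletal muscle factor, was listed at 0 in both libraries, as were Myh2, Myh4 and Tnnt3.

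**Figure D5:**
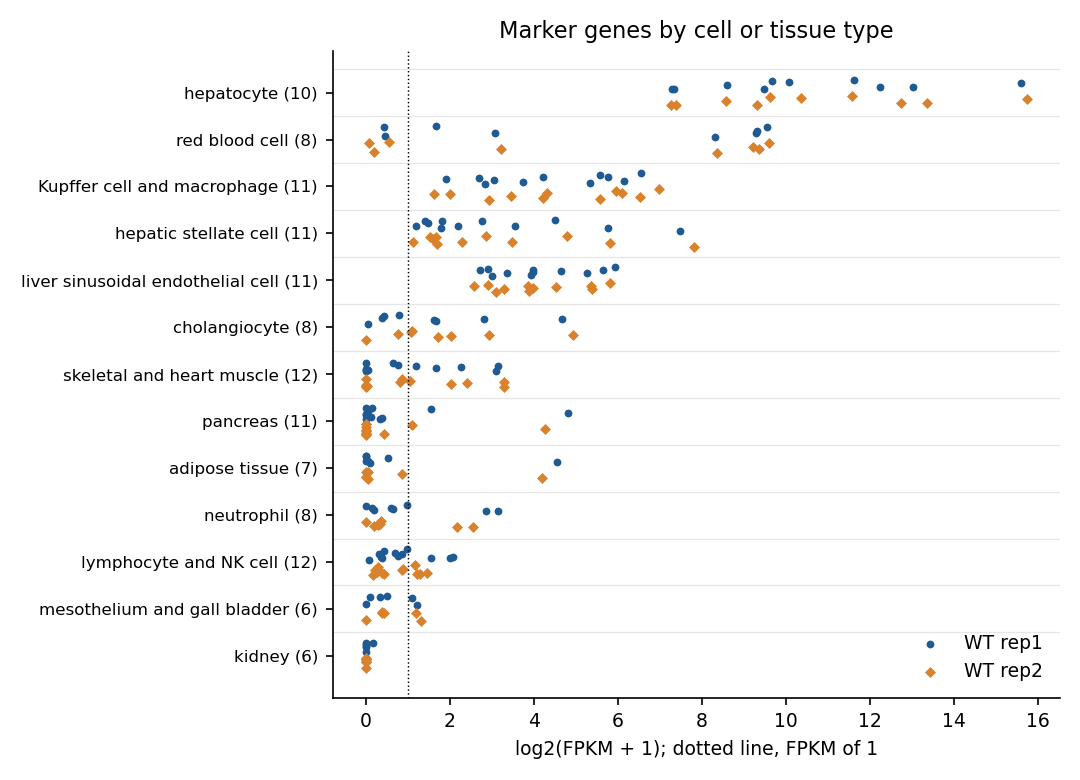
Level of each listed marker gene as log2(FPKM + 1), by cell or tissue type, with the number of genes in brackets. Blue circles are WT replicate 1, orange diamonds WT replicate 2, and the dotted line is 1 FPKM; all 10 hepatocyte markers lie far to its right, and no kidney marker reaches it.

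Both ends of the lobule were represented. The 20 genes listed for pericentral hepatocytes all had a mean of at least 1 FPKM and summed to 6403 and 6393, with 10 higher and 10 lower in replicate 2. After Cyp2e1 the highest were Rgn (642 and 547) and Cyp2c29 (523 and 586). Glul, glutamine synthetase of the cells next to the central vein, was at 406 and 363, and the Wnt receptor component Lgr5 at 1.52 and 1.62. Cyp7a1, the rate-limiting enzyme of bile acid synthesis, was at 46.4 and 23.7. Of the 21 periportal genes kept, 16 were higher and 5 lower in replicate 2, where 40.3% of all rows at 1 FPKM or more were higher. They ranged from Alb down to the cell adhesion gene Cdh1 (16.1 and 13.7), with Gls2, a glutaminase, at 779 and 992 and Hal of histidine breakdown at 342 and 386.

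All 40 transcription factors listed for hepatocytes had a mean of at least 1 FPKM, 28 of them at least 10. They summed to 2037 and 2114 FPKM, 0.259% and 0.265% of the FPKM sum. The highest were Atf5 (340 and 294), the lipogenic factor Srebf1 (217 and 333), Cebpa (179 and 187) and Hnf4a (160 and 153). Nr1i3, a xenobiotic sensor, was at 81.5 and 108, and its relative Nr1i2 at 26.0 and 26.1. Ppara, the receptor for fatty acids, was at 18.5 and 19.6. Forkhead factors stood far apart, with Foxa3 at 33.7 and 26.6, Foxa2 at 21.2 and 22.9 and Foxa1 at 3.61 and 3.54. Onecut1 was at 3.90 and 2.21, and the lowest, Gata6, at 2.50 and 2.74. By direction 19 were higher and 21 lower in replicate 2, where 40.3% of all rows at a mean of at least 1 FPKM were higher. Srebf1 and Cebpb (55.9 and 87.1) were among the higher ones, and Zhx2 (4.70 and 1.95), a repressor in adult liver, among the lower.

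The labels do not give sex, and sex-linked genes were read as levels only. Xist, the RNA of the inactive X chromosome, was at 82.2 and 66.1 FPKM. The Y-linked genes were near 0, with Ddx3y at 0.0765 and 0, Uty at 0.0941 and 0.101, Kdm5d at 0.0149 and 0.00505 and Eif2s3y at 0.531 and 0.137. Of genes known for higher levels in female liver, Cyp2b9 was at 208 and 260, and A1bg, Sult3a1 and Cyp3a41a as given above. Of those known for higher levels in male liver, Cyp4a12a was at 0.0471 and 0.0359, Elovl3 at 1.06 and 0.745 and Hsd3b5 at 9.76 and 1.08. Among the 18 genes of the list at a mean of at least 1 FPKM, 4 were higher and 14 lower in replicate 2, where 59.7% of all such rows were lower. Both kinds were among the lower ones.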

How the data were processed

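Liver RNA was purified with a column kit and sequenced from standard Illumina libraries (extract protocol of the labels). The submitters' processing notes name cutadapt 1.11, TopHat2 2.1.1 and Cufflinks 2.2.1 with the build mm9. No source used here gives settings, annotation, read length or strandedness. The authors deposited FPKM per gene, with bounds and a status, per the file headers. These values were used as deposited, without further normalization.

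Rows were kept where the status was OK in both WT tables and the locus spanned at least 300 bp. Status removed 331 rows of low data per library and 4 failed rows in replicate 1 (Stard7, Ttc7, Zfp488, Gm15978) and 1 in replicate 2 (Ttc38). Locus starts were shifted to count from 1. Rows were ranked by mean FPKM over n = 2. Each row was put in the first of 30 classes that named it or whose name pattern it fitted, and 17 gene lists were read. The members and lists were chosen with earlier results of these data known. The P450 pattern was widened by 1 optional trailing letter after values were seen. Named genes were the 25 highest named rows, the 3 highest of each class, list members with a mean of at least 1 FPKM, and the 8 largest log2 ratios in each direction at a mean of at least 10. Other genes named in the text, and list members under 1 FPKM, were chosen after their values were seen. Replicate agreement used log2(FPKM + 1) at a mean of at least 1. The calculation was tested on simulated data with 200 changed genes.

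GENCODE M21 gave biotypes, lengths and transcripts, matched by gene ID for 28044 rows (90.1%), and no coordinates. Near copies were found with BLAST+ 2.17.0. Promoters came from RefSeq GRCm38.p6 and matched 16336 rows. Python 3.11.15, pandas 2.3.3, NumPy 2.4.6 and SciPy 1.17.1 were used. Depth is unknown, so no interval for counting error is given. The alternatives tried were other span minimums, leaving out mitochondrial, low or unnamed rows, another pseudocount, scaling, each replicate alone, summed symbols and a geometric mean.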

Additional observations from a re-analysis of the deposited data

How the results depend on the processing

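The plasma protein share, with the major urinary proteins counted, was 37.4% as the mean of both libraries. With no span minimum it was 18.8%, at 200 bp 36.5% and at 1000 bp 40.8%. It was 39.9% without mitochondrial rows and 40.4% without unnamed genes. Alternatives chosen after seeing the data gave 38.6% from the midpoint of the deposited bounds and 31.5% from FPKM times transcript length. Rows with no known transcript length were not in that product. The share of the 10 highest rows, 22.1%, was 49.4% with no span minimum and 18.4% from FPKM times transcript length. Pearson r between replicates, 0.989, was 0.995 with no filter on low values and 0.932 with no span minimum. The value of 0.995 includes the 8914 rows at 0 in both libraries. Each replicate alone gave a plasma protein share of 37.1% to 37.7%, a share of the 10 highest rows of 20.8% to 23.5% and 12750 to 12935 rows of at least 1 FPKM. Of the alternatives for these summary values, 25 moved them by less than the spread between replicates or the tolerance set. Another 11 moved them further. Among single classes and lesser values, 55 moved beyond that limit and 80 did not. The 25 and the 80 include values from 1 replicate alone. A share from 1 replicate always lies closer to the mean of both than their SD, so it could not count as moved. No value changed sign, but shares, row counts and SDs cannot be negative. Only the correlation and the median log2 ratios of classes could have changed sign. No paired analysis was possible because 1 group was described and no test was made. Depth is unknown, so its effect on low rows was not tested.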
